A study of Homo sapiens with 5 samples.

Results

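Binding of ATF3 and p53 was described at 6 genes of the p53 family and of the feedback loops around p53, namely MDM2, MDM4, PPM1D, CCNG1, TP63 and TP73, among 20163 protein-coding genes. Members were the ChIP-seq peaks that overlapped the window from 20 kb upstream of the transcription start site (TSS) to the end of each gene. These windows held 43 peaks in all, of which 12 of 33966 belonged to ATF3-Ctrl, 23 of 70702 to ATF3-CPT, 2 of 2231 to ATF3-KO, 6 of 9211 to p53-CPT and 0 of 7879 to p53-KO.

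The 5 libraries came from HCT116, a human colon cancer cell line with wild-type p53, with 1 library for each condition. ATF3 was precipitated from ATF3-WT cells given DMSO (ATF3-Ctrl), from ATF3-WT cells given camptothecin (CPT, a topoisomerase I inhibitor that breaks DNA) at 1.5 μM for 4 h (called ATF3-CPT), and, as the control for the antibody, from ATF3-KO cells given DMSO (ATF3-KO). p53 was precipitated from p53-WT cells given CPT (p53-CPT) and from p53-KO cells given DMSO (p53-KO), so that genotype and treatment cannot be told apart between the p53 libraries. The ATF3-KO cells were a clonal line made by homologous recombination, and the wild-type and p53-KO cells were both obtained from the same outside laboratory. Peak lists hold no expression values, so neither the cell type nor the levels of ATF3 and p53 could be checked from them.

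p53 is a transcription factor that accumulates when DNA is damaged and binds a sequence made of a repeated element. Several of its targets encode proteins that restrain it: MDM2 is the ubiquitin ligase that marks p53 for degradation, its relative MDM4 masks the p53 activation domain, the phosphatase PPM1D (WIP1) reverses damage signalling, and cyclin G1 (CCNG1) is a p53 target that acts through MDM2. p63 and p73 are relatives of p53 that bind similar DNA. ATF3 is a stress-induced bZIP factor that binds AP-1 and ATF/CRE sequences.

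The sequences under the sites that carry these results are given first, from GRCh37 (hg19), on the plus strand, which is the strand of all 6 genes. Capitals mark a p53 motif (2 tandem elements of 10 bases, at most 3 mismatches, no spacer), an AP-1 core (TGACTCA or its reverse complement TGAGTCA) or an ATF/CRE core (TGACGTCA). In the first 2 sequences ATF3 and p53 peaks overlapped.
MDM2 intron 1, at the second promoter and up to its transcript start, chr12:69202602-69202781, 1 AP-1 core and then 2 p53 motifs: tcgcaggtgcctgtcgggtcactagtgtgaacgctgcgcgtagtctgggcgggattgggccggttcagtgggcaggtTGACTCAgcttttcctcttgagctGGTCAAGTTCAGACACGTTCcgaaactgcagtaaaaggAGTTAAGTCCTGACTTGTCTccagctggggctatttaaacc
PPM1D promoter, chr17:58677434-58677553, ATF/CRE core: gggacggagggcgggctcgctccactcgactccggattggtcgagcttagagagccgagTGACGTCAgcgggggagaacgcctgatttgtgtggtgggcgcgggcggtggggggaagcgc
PPM1D exon 1, chr17:58677612-58677631, the p53 motif alone: GGACAAGTCCAGACATCGCG

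Next come the p53-CPT sites without an ATF3 peak. In the last of them the capitals mark only the best match, which had 4 mismatches and did not count as a motif.
CCNG1 intron 1, chr5:162864882-162865001: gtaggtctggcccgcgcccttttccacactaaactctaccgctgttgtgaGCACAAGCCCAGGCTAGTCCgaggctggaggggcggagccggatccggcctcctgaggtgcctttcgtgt
MDM4 intron 1, chr1:204494104-204494263: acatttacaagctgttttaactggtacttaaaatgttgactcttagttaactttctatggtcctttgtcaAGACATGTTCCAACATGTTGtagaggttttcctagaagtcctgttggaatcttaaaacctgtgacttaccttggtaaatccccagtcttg
MDM4 upstream, chr1:204478639-204478758: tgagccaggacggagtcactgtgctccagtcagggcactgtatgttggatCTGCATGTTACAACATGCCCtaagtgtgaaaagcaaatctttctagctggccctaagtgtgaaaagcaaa

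Of the ATF3 sites without p53, the highest of the 6 genes, the highest one called only after CPT, and both TP63 sites are shown. The first and the third held TTGCATCA or its reverse complement TGATGCAA, the C/EBP-ATF composite element (capitals), which was searched for only after these sequences had been read; the others held AP-1 cores (capitals).
MDM4 upstream, chr1:204476218-204476342: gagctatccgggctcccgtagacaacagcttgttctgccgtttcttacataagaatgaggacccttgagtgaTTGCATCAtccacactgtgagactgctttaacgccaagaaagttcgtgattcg
MDM4 intron 1, chr1:204493092-204493216: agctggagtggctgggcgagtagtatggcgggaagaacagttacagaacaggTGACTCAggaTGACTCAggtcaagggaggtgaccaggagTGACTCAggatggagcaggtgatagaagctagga
TP63 intron 1, chr3:189382187-189382311: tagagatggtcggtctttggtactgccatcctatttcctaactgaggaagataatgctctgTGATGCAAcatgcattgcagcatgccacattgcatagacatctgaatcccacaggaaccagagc
TP63 intron 4, chr3:189542500-189542624: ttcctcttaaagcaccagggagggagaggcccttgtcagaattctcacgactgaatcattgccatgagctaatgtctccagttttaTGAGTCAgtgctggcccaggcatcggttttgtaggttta

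Each peak carries a normalized tag count, scaled by the authors to a library of 10000000 tags, and a findPeaks score, a tag number not adjusted for depth. The ATF3 libraries held 12820520 to 15457013 tags, and the p53-CPT and p53-KO libraries 3169743 and 1984941. The smallest peaks that could be called had 9 tags in ATF3-Ctrl and ATF3-CPT, 11 in ATF3-KO, 7 in p53-CPT and 6 in p53-KO, or normalized tag counts of 6.95, 5.82, 8.58, 22.08 and 30.23, so weaker binding was not detectable. For the same reason, ATF3-Ctrl and ATF3-CPT peaks under 8.58 could not be set against the ATF3-KO background. In brackets are 95% exact intervals, which cover counting error only. With 1 library per condition, no difference has a replicate check and no test was made.

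After CPT, p53 peaks lay at MDM2, MDM4, PPM1D and CCNG1 and at neither TP63 nor TP73. None of the 6 p53-CPT peaks overlapped a p53-KO peak, whereas 60.9% of all p53-CPT peaks did. Thus 4 of the 6 genes held a p53-CPT peak without a p53-KO peak, against 11.1% of all genes, and 0 of the 6 held a p53-KO peak, against 17.5%. The share rose with the size of the window, from 6.23% of genes under 50 kb to 10.9% between 50 and 100 kb and 22.8% from 100 kb upwards. Of the 4 genes, CCNG1 (28.6 kb) was in the smallest class and MDM2 (57.4 kb), MDM4 (61.7 kb) and PPM1D (86.1 kb) were in the middle one, while TP63 (286 kb) and TP73 (104 kb) were in the largest. The p53-KO threshold of 30.23 was above the p53-CPT peak at MDM2 -7940 bp (25.2). It was inside the intervals of those at MDM4 +8736 bp (34.7 [17.3 to 62.1]), PPM1D and CCNG1 (41.0 [21.8 to 70.1] each). At these sites a background of similar size could have gone unlisted in p53-KO.

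ATF3 peaks lay at 5 of the 6 genes in ATF3-Ctrl and at 6 of 6 in ATF3-CPT, against 65.2% and 81.0% of all genes, so having an ATF3 peak did not set these genes apart. Their density was also near that of all windows, at 3.69 ATF3-CPT peaks per 100 kb against 3.58 and at 1.93 ATF3-Ctrl peaks against 1.78. MDM2 departed from this with 8 ATF3-CPT peaks, or 13.9 per 100 kb, and TP63 had only 0.70 per 100 kb. ATF3-KO peaks were found at the promoters of MDM4 and PPM1D, that is at 2 of 6 genes against 11.4% of all genes. These overlapped 2 of the 23 ATF3-CPT peaks, against 2.60% of all ATF3-CPT peaks.

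**Figure D1:**
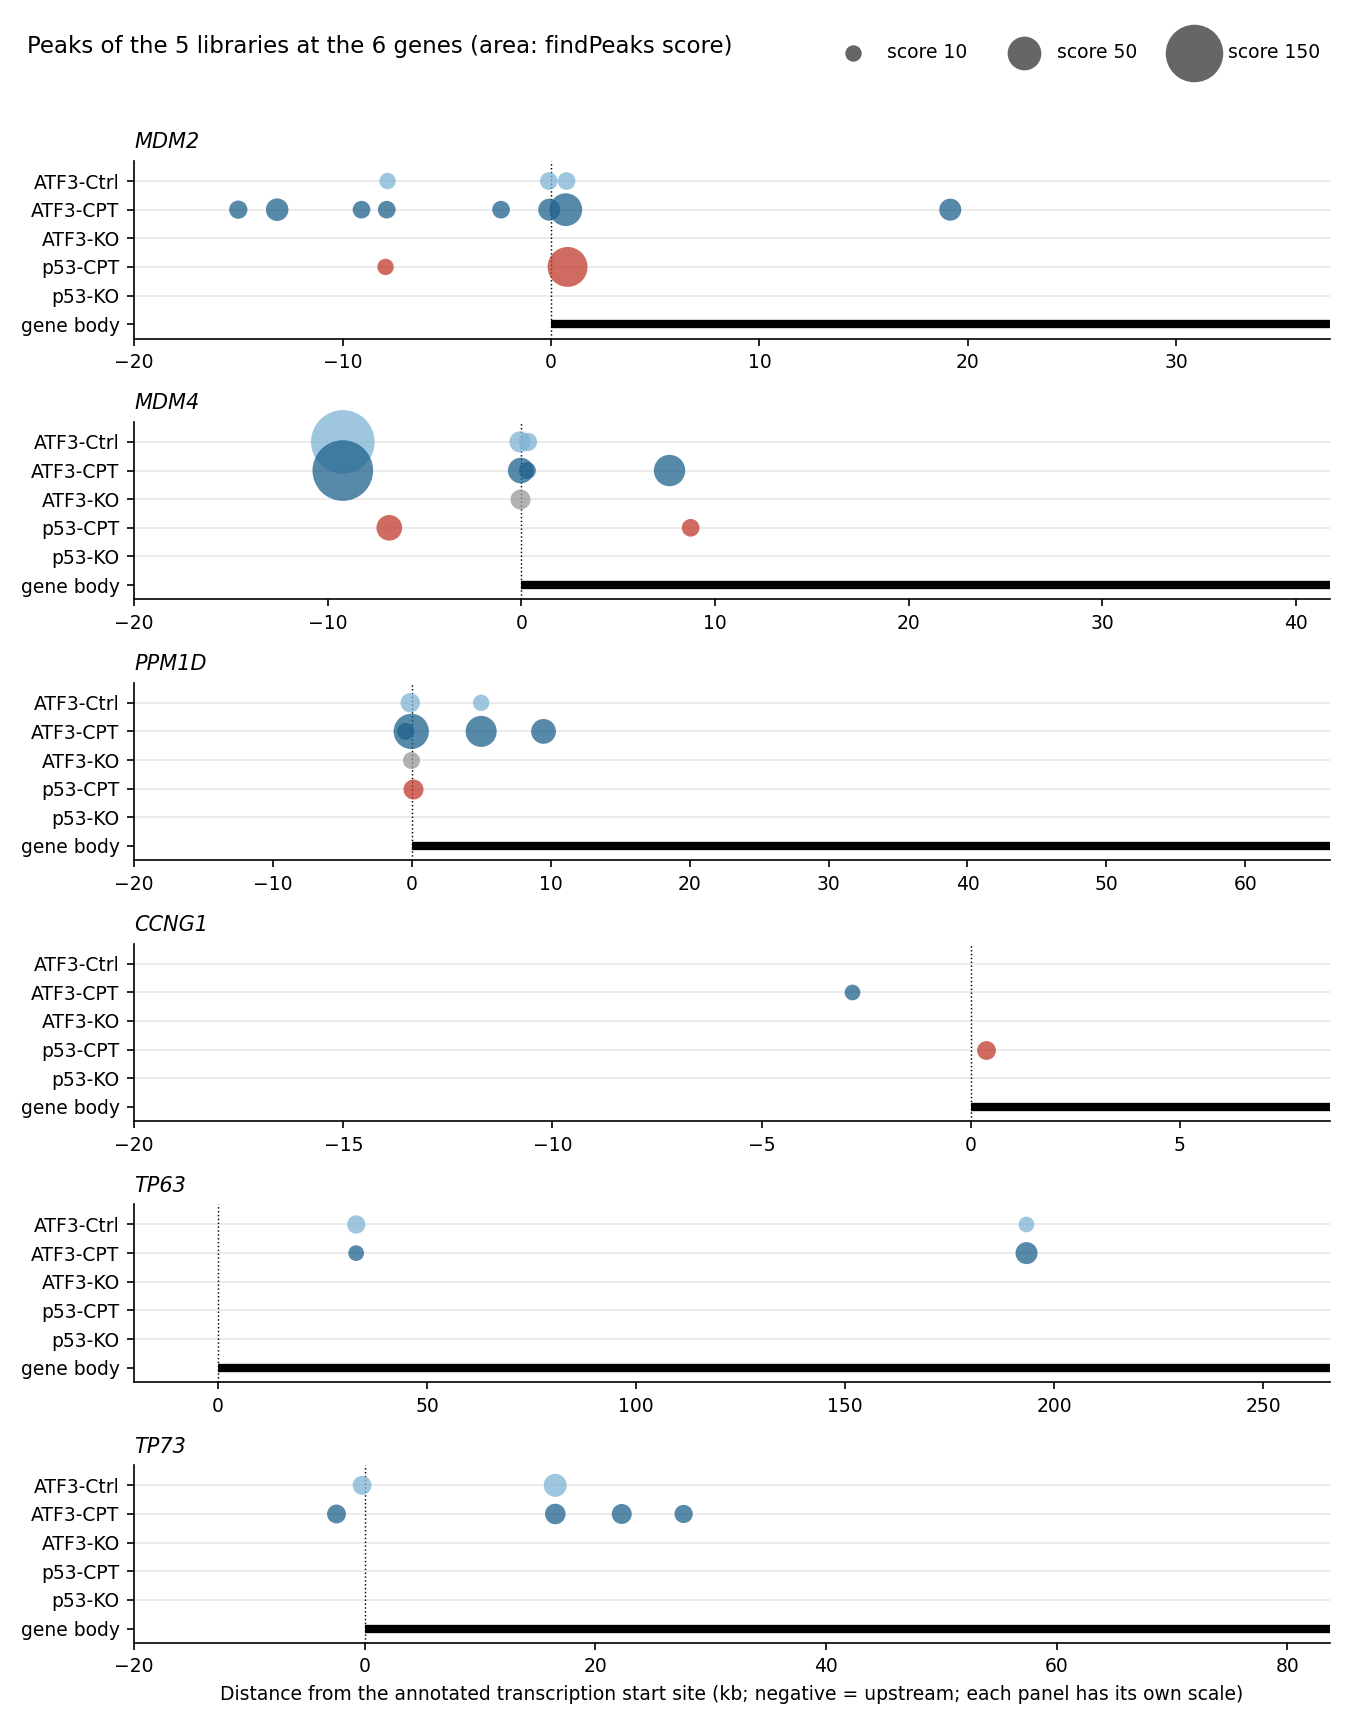
Position of every peak of the 5 libraries at the 6 genes, by distance of its centre from the TSS in kb (x axis, 1 scale per gene), with 1 row per library, circle area growing with the findPeaks score and the gene body as a black bar. The p53-CPT row is filled at MDM2, MDM4, PPM1D and CCNG1 and empty at TP63 and TP73, and the largest circles are those of ATF3 at -9227 bp from MDM4.

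At MDM2 (chr12:69201957-69239324) the strongest p53 site of the 6 genes coincided with ATF3. The p53-CPT peak at chr12:69202593-69202911, in intron 1 at +795 bp, had a normalized tag count of 258.7 [205.7 to 321.1], a score of 71 and a 59.44-fold enrichment over the surrounding region. It ranked 76 of the 3600 p53-CPT peaks without a p53-KO peak, whose median score was 9 and median normalized tag count 31.5. Its centre lay at -30 bp from the annotated start of an MDM2 transcript, at the second MDM2 promoter, which is known as the p53-responsive one.

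An ATF3 peak was called there with and without CPT. The normalized tag count was 8.5 [4.2 to 15.2] in ATF3-Ctrl and 30.4 [22.3 to 40.4] in ATF3-CPT, and these intervals did not overlap. No peak was listed in ATF3-KO, but its threshold of 8.58 was above the ATF3-Ctrl value, so the latter could not be set against the background in those cells. The ratio of ATF3-CPT to ATF3-Ctrl was 3.58 [1.83 to 7.65], the highest of the shared sites at the 6 genes, and 91.5% of all shared sites had a ratio at or below it. The ATF3-CPT and p53-CPT peak centres were 85 bp apart. The AP-1 core lay at -70 bp from the p53 peak centre, and the 3 p53 motifs lay at -39 bp (2 mismatches), -1 bp (3 mismatches) and 123 bp (3 mismatches); the AP-1 core and the nearest p53 motif were both inside the ATF3-CPT peak, as the sequence above shows. A p53 motif together with an AP-1 core was found in 1 of the 6 p53-CPT peaks, against 4.45% of p53-CPT peaks without a p53-KO peak.

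A second p53-CPT peak upstream of MDM2, at chr12:69193858-69194176 (-7940 bp), was weak, with a normalized tag count of 25.2 [10.9 to 49.7] and a score of 10. It overlapped ATF3 peaks of 7.7 [3.7 to 14.2] in ATF3-Ctrl and 9.1 [5.0 to 15.2] in ATF3-CPT, and the ratio of 1.17 [0.48 to 2.95] included 1. A p53 motif with 3 mismatches lay inside both the p53-CPT and the ATF3-CPT peak. The DNA is repeated: only 49.83% of the 31-base words of the p53-CPT peak and 40% of those of the ATF3-CPT peak occurred once in the genome, whereas at +795 bp all did. The part of repeated sequence in this overlap was not tested.

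The first MDM2 promoter had ATF3 and no p53 peak. ATF3 there was at 8.5 [4.2 to 15.2] in ATF3-Ctrl (-104 bp) and at 12.9 [7.9 to 20] in ATF3-CPT (-84 bp), with a ratio of 1.52 [0.70 to 3.52] that included 1. The other 5 MDM2 sites were listed in ATF3-CPT alone, at -15007, -13141, -9093, -2398 and +19158 bp, with normalized tag counts of 7.8 to 13.6. The sites at -13141, -2398 and +19158 bp each held an AP-1 core. The one at -15007 bp also lies inside the neighbouring gene SLC35E3.

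At MDM4 (chr1:204485507-204527248), in contrast to MDM2, ATF3 and p53 peaks were interspersed and did not overlap. The p53-CPT peak at chr1:204478521-204478839 (-6827 bp) had a normalized tag count of 82.0 [53.6 to 120.2] and a score of 28, above 87.8% of the list or equal to it, and ranked 400 among peaks without a p53-KO peak. It was the only one of the 6 without a p53 motif, with a best match of 4 mismatches. When a spacer of up to 13 bases was allowed between the elements, a match with 2 mismatches was found at a spacer of 10 bases, as in 41.6% of p53-CPT peaks without a p53-KO peak and 10.2% of windows 1000 bp to the side. Of its 31-base words 80.97% occurred once in the genome. The p53-CPT peak in intron 1 at chr1:204494084-204494402 (+8736 bp) was at 34.7 [17.3 to 62.1] with a score of 12, held a motif with 2 mismatches, and lay at -375 bp from the start of an annotated MDM4 transcript.

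The ATF3 site at -9227 bp of MDM4 was the highest of the 6 genes by a wide margin. Its normalized tag count was 326.7 [296.3 to 359.4] in ATF3-Ctrl and 229.7 [206.4 to 254.8] in ATF3-CPT, with no peak in ATF3-KO, and it ranked 20 in the ATF3-Ctrl list and 63 in the ATF3-CPT list by score. The intervals did not overlap and the ratio was 0.70 [0.61 to 0.81], the only shared site of the 6 genes whose interval lay below 1. Divided by the total tags, the scores of 184 and 167 gave a ratio of 0.76. These scores were well below the 423 and 355 tags recovered from the normalized tag counts; the cause was not tested. The peak held neither an exact AP-1 core nor an ATF/CRE core but 1 C/EBP-ATF composite element, at 14 bp from its centre. The nearest p53-CPT peak, at -6827 bp, was centred 2400 bp away.

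ATF3 at the MDM4 TSS coincided with an ATF3-KO peak. The normalized tag count was 14.7 [8.8 to 22.9] in ATF3-Ctrl, 16.8 [11 to 24.6] in ATF3-CPT and 11.7 [6.5 to 19.3] in ATF3-KO, and these intervals overlapped. Peaks were wider in ATF3-KO than in the other ATF3 libraries, and the counts were not scaled to width. These values therefore cannot decide whether ATF3 stood above the ATF3-KO background there. A neighbouring intronic site was at 10.0 [5.3 to 17.2] in ATF3-Ctrl (+336 bp) and at 6.5 [3.1 to 11.9] in ATF3-CPT (+303 bp), which also overlapped. The site at +7647 bp was listed in ATF3-CPT alone, at 31.1 [22.9 to 41.2] with a score of 43, the highest of the sites listed only after CPT. It held 3 AP-1 cores, and 78.95% of its words occurred once in the genome. Its centre was 1089 bp from that of the p53-CPT peak at +8736 bp.

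At PPM1D (chr17:58677554-58743641) p53 and ATF3 peaks overlapped at the promoter. The p53-CPT peak at chr17:58677439-58677757, centred in exon 1 at +44 bp, had a normalized tag count of 41.0 [21.8 to 70.1] and a score of 16. Its p53 motif had 3 mismatches and lay at 24 bp from the peak centre, downstream of the ATF3-CPT peak. The ATF/CRE core lay at -101 bp from the p53 peak centre and at -6 bp from that of the ATF3-CPT peak. Such a core was in 1 of the 6 p53-CPT peaks, against 0.310% of p53-CPT peaks without a p53-KO peak.

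ATF3 at the PPM1D promoter was at 10.8 [5.9 to 18.1] in ATF3-Ctrl (-122 bp), 36.9 [27.9 to 47.8] in ATF3-CPT (-51 bp) and 8.6 [4.3 to 15.4] in ATF3-KO (-83 bp). The whole ATF/CRE core was inside the ATF3-CPT peak and also inside the ATF3-KO peak, but not inside the ATF3-Ctrl peak. The ATF3-CPT value was above both others, whose intervals overlapped each other, and the ATF3-KO cells had not received CPT. Because the ATF3-KO peak was the wider, that overlap cannot decide whether ATF3-Ctrl stood above the ATF3-KO background. The ratio of ATF3-CPT to ATF3-Ctrl was 3.41 [1.88 to 6.63] between these offset peaks, which no longer counted as a shared site when a larger overlap was required. A similar ratio, 3.52 [1.74 to 7.86], was found in intron 1 at +4984 bp, where ATF3 went from 7.7 [3.7 to 14.2] to 27.2 [19.6 to 36.7] and no p53 peak was called. Sites at -453 and +9474 bp were listed in ATF3-CPT alone, at 7.8 and 16.2, and the first held a p53 motif with 3 mismatches without a p53 peak.

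CCNG1 (chr5:162864575-162873157) had the p53 motif with the fewest mismatches of the 6 sites, and 1 ATF3 peak in a window of 28.6 kb (3.50 ATF3-CPT peaks per 100 kb). The p53-CPT peak at chr5:162864774-162865092 (intron 1, +358 bp) had a normalized tag count of 41.0 [21.8 to 70.1], as at PPM1D, a score of 14 and a motif with 1 mismatch, at 9 bp from the peak centre. No ATF3 peak was called in ATF3-Ctrl. In ATF3-CPT a single peak at -2846 bp had 5.8 [2.7 to 11.1], the lowest value of the 23 and at the calling threshold, and its centre was 3204 bp from that of the p53-CPT peak.

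**Figure D2:**
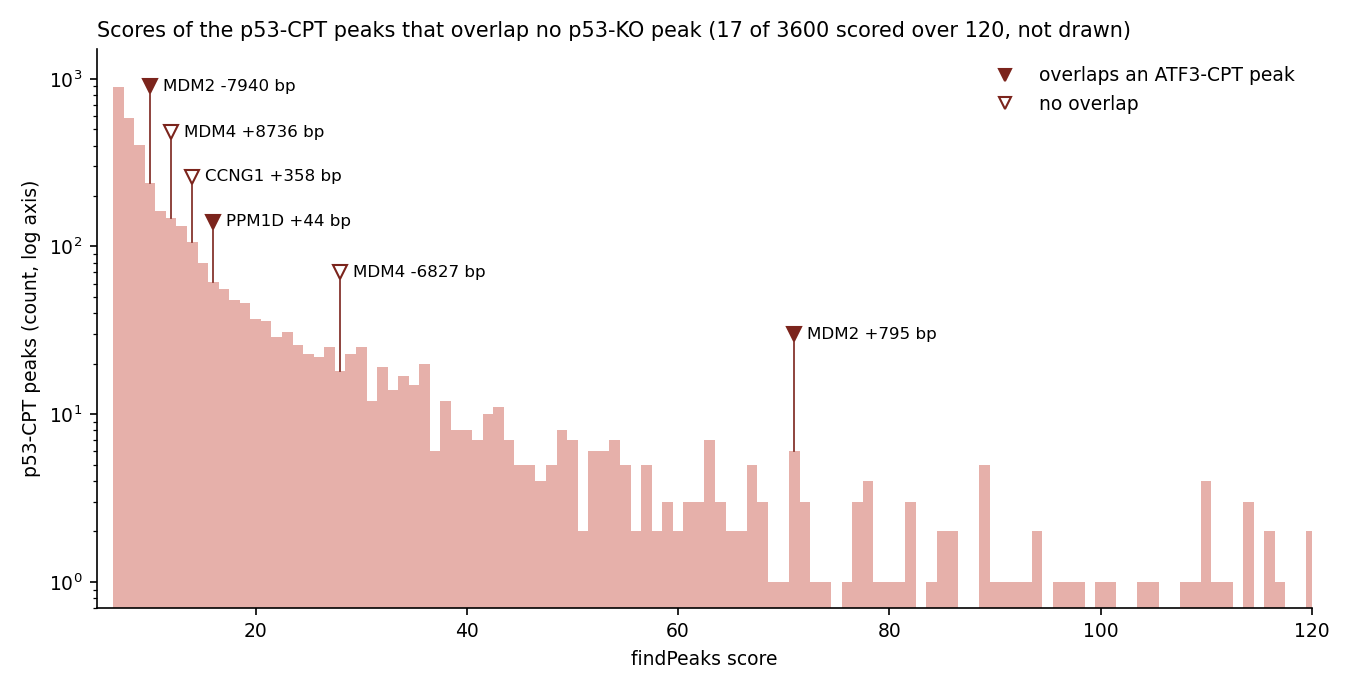
Number of p53-CPT peaks without a p53-KO peak (log axis) at each findPeaks score, with the 6 peaks of MDM2, MDM4, PPM1D and CCNG1 marked by triangles, filled where an ATF3-CPT peak overlapped. The MDM2 peak at +795 bp (score 71) stands apart from the other 5, which scored 10 to 28, all above the median of 9.

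Over the 6 p53-CPT peaks, 3 overlapped an ATF3-CPT peak, against 19.0% of p53-CPT peaks without a p53-KO peak, and the same 3 overlapped an ATF3-Ctrl peak. Conversely, 3 of the 23 ATF3-CPT peaks overlapped such a p53-CPT peak, against 0.979% of all ATF3-CPT peaks. The 3 overlapping pairs were centred 58, 85 and 95 bp apart. The other 3 p53-CPT peaks lay 1089, 2400 and 3204 bp from the nearest ATF3-CPT peak, all closer than the median of 7176.5 bp. That median is over p53-CPT peaks without a p53-KO peak in the whole genome, and 44.7% of these lay within 5 kb of an ATF3-CPT peak. A p53 motif was held by 5 of the 6, against 44.6% of p53-CPT peaks without a p53-KO peak and 7.24% of windows 1000 bp to the side. With only 6 peaks from genes known as p53 targets, these shares are a description of the peaks.

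**Figure D3:**
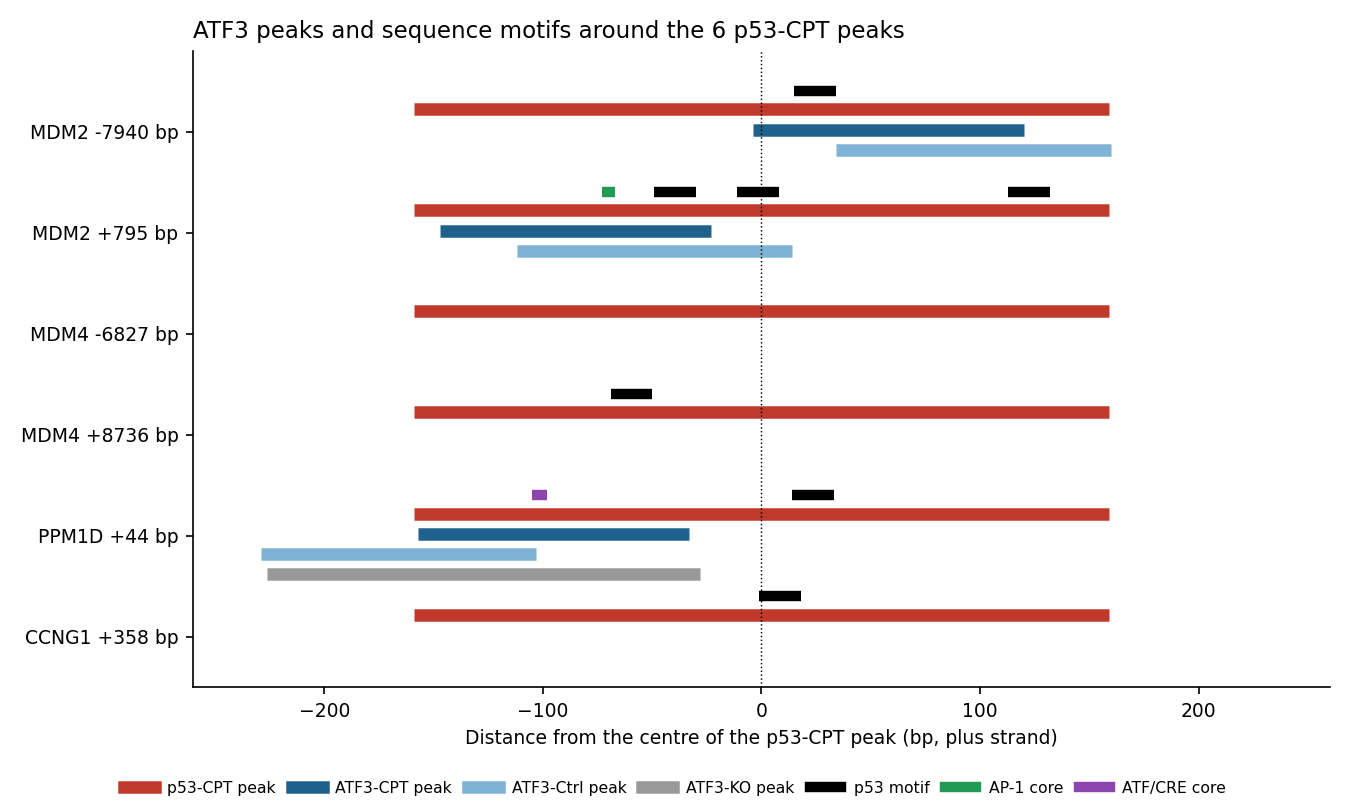
Layout of the 6 p53-CPT peaks (red), the ATF3-CPT (dark blue), ATF3-Ctrl (light blue) and ATF3-KO (grey) peaks and the motifs within the p53-CPT peak, by distance from its centre in bp. ATF3 peaks appear at the 2 MDM2 peaks and at PPM1D, the only row with an ATF3-KO peak, and the MDM4 peak at -6827 bp has no motif.

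No p53-CPT peak lay at TP63 (chr3:189349178-189615065), which encodes the epithelial p53 relative p63, or at TP73 (chr1:3569080-3652765), which encodes p73. Binding under a normalized tag count of 22.08 could not have been listed. TP63 had ATF3 peaks at the same pair of intronic sites in both wild-type libraries. The ATF3-CPT value in intron 1 and the ATF3-Ctrl value in intron 4 were below the ATF3-KO threshold of 8.58. In intron 1, at +33071 bp, ATF3 was at 10.0 [5.3 to 17.2] in ATF3-Ctrl and 6.5 [3.1 to 11.9] in ATF3-CPT. In intron 4, at +193384 bp, it was at 7.0 [3.2 to 13.2] and 12.9 [7.9 to 20]. The values moved in opposite directions, with ratios of 0.64 [0.25 to 1.59] and 1.86 [0.81 to 4.64], but both intervals included 1. The first site held a C/EBP-ATF composite element and the second an AP-1 core.

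TP73 shared 1 intronic site between the libraries, at 17.0 [10.6 to 25.7] in ATF3-Ctrl (+16513 bp) and 11 [6.4 to 17.6] in ATF3-CPT (+16518 bp), with a ratio of 0.65 [0.32 to 1.28] that included 1. Of the sites listed in ATF3-CPT alone, those at +22282 and +27649 bp were at 10.4 and 8.4. The third, at -2457 bp and 9.7, lies inside the neighbouring gene WRAP73. A peak of 10.8 [5.9 to 18.1] close to the TSS (-237 bp), also inside WRAP73, was listed in ATF3-Ctrl and was the only 1 of the 12 ATF3-Ctrl peaks that overlapped no ATF3-CPT peak. None of the TP73 peaks held an AP-1 core, an ATF/CRE core or a p53 motif.

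Of the 11 ATF3 sites shared by ATF3-Ctrl and ATF3-CPT, 3 rose at least 2-fold (MDM2 at +710 bp and PPM1D at -51 and +4984 bp), against 43.6% of all 27104 shared sites, and 0 fell at least 2-fold, against 2.37%. Intervals lay above 1 at these 3 sites, below 1 at the MDM4 site at -9227 bp, and included 1 at the other 7. The median ratio was 1.17 at the 11 sites and 1.79 at all shared sites, with quartiles of 1.12 and 2.63, and the former was 1.52 with windows from 5 kb or from 50 kb upstream. With 11 sites, these values do not set the 6 genes apart. Of the 3 sites with a p53-CPT peak, 2 were among those that rose, 1 of them the offset pair of peaks at the PPM1D promoter.

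**Figure D4:**
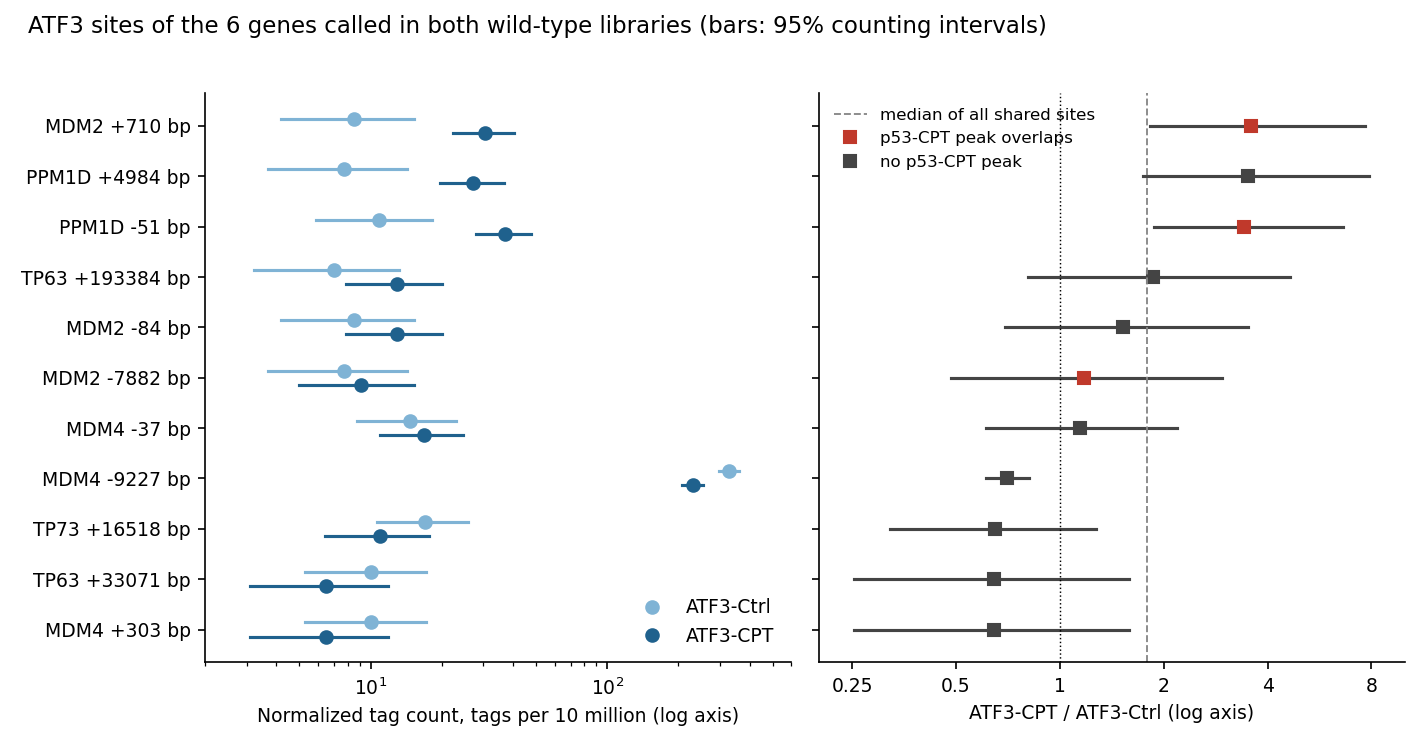
Normalized tag count in ATF3-Ctrl and ATF3-CPT (left, log axis) and their ratio (right, log axis) at the 11 shared ATF3 sites, named by gene and distance from the TSS, with 95% counting intervals as bars. Ratios run from 0.64 to 3.58, squares are red where a p53-CPT peak overlapped, and the dashed line marks the median of all shared sites, 1.79.

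The remaining 12 of the 23 ATF3-CPT peaks (52.2%) had no counterpart in ATF3-Ctrl, against 61.7% over the whole list. Their normalized tag counts ran from 5.8 to 31.1, and 7 of the 12 had a score under 15. Intervals lay above the ATF3-Ctrl threshold of 6.95 at MDM4 +7647 bp (31.1 [22.9 to 41.2]) and PPM1D +9474 bp (16.2 [10.5 to 23.9]). The same held at MDM2 -13141 and +19158 bp (13.6 [8.4 to 20.8] each). At the others the interval included 6.95, so a site absent from ATF3-Ctrl may differ little from a listed one. Because ATF3-Ctrl counts at unlisted positions were not available, none was read as a gained site. AP-1 cores were in 6 of the 23 ATF3-CPT peaks, against 40.6% of all, an ATF/CRE core in 1, against 1.41%, and a C/EBP-ATF composite element in 2, against 3.51%. In windows 1000 bp to the side of ATF3-CPT peaks these shares were 2.08%, 0.064% and 0.34%. The composite element was searched for only after the sequences of those 2 peaks had been read. Its count was therefore set by that choice, and no conclusion is drawn from its comparison with these shares.

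Other regulators of p53 were described by the same windows. Of 13 genes (COP1, RCHY1, SIAH1, CDKN2A, TP53INP1, USP7, USP10, HIPK2, PPP1R13L, PPP1R13B, TP53BP2, CCNG2 and TRIM24), 11 had an ATF3-Ctrl peak, 13 an ATF3-CPT peak, 2 an ATF3-KO peak and 2 a p53-KO peak. The shares of all genes with such peaks were 65.2%, 81.0%, 11.4% and 17.5%. A p53-CPT peak without a p53-KO peak was found at 4 of the 13, against 11.1% of all genes. Among all such p53-CPT peaks 19.0% overlapped ATF3-CPT, and at 2 of the 4 genes an overlap with ATF3-CPT was found. TP53INP1, a stress-induced p53 cofactor, had such an overlap at -171 bp, where p53-CPT was at 50.5 with a score of 17, much as at the PPM1D promoter. HIPK2, a kinase of p53, had one at +112179 bp with 22.1 and a score of 7, the calling threshold in p53-CPT and below that of 30.23 in p53-KO. The deubiquitinase gene USP7 had a p53-CPT peak of 31.5 with a score of 8 at -11959 bp, without ATF3. That value was close to the p53-KO threshold of 30.23, so a similar background could have gone unlisted. CCNG2, which encodes a relative of cyclin G1, had 3 p53-CPT peaks without ATF3, the highest of them at 312.3 with a score of 78 but at +175893 bp within a long annotated gene body.

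Among 343 other p53-CPT sites with peaks in ATF3-Ctrl and ATF3-CPT, those nearest to each member in log2 normalized tag count over the 3 libraries were named by the closest TSS. The MDM2 site at +795 bp was nearest to sites named by PNLIPRP2 (7.0, 25.9 and 233.5 in ATF3-Ctrl, ATF3-CPT and p53-CPT, distance 0.39), SCHIP1 (0.41) and PI4K2A (0.56). These lay at +13702, -10130 and +11264 bp from the TSS named. The PPM1D site was nearest in these values to sites named by EMP1 (9.3, 32.3 and 44.2, distance 0.31), GSDMC (0.33) and FOXA2 (0.37), all over 100 kb from the TSS named. The weak MDM2 site at -7940 bp had the same 3 values as a site at PHB2. It was close in value to sites named by PDK2 (0.12) and ZDHHC20 (0.18), the latter at +81988 bp from the TSS named. The MDM4 and CCNG1 sites had no ATF3 peak and no such neighbours were sought.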

How the data were processed

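ChIP-seq of ATF3 and p53 was carried out in HCT116 cells cross-linked with 1 mM DSG for 45 min and 1% formaldehyde for 10 min, with 5 libraries and no replicates. The authors aligned reads to hg19 with BWA 0.6.1 and called peaks in each library with HOMER 4.1 findPeaks, with no input control. Their thresholds were a false discovery rate of 0.001, 4-fold over the local region and a local p of 0.0001. The authors deposited, for each peak, a signal (the normalized tag count, scaled to 10000000 tags), a score (a tag number not scaled to depth) and a ratio (the fold over the local region). Broad or repeated regions and depth can change which peaks are listed.

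From these, peaks were assigned to GENCODE release 44 genes lifted to GRCh37 and overlapped by at least 1 bp, taking the highest-scoring ATF3-CPT peak at a shared site. Tags were recovered from the normalized tag counts, and intervals are exact Poisson or conditional binomial. Python 3.11.15, pandas 2.3.3, scipy 1.17.1 and pysam 0.24.0 were used, and the scripts were tested on simulated data. Motifs were searched on both strands in peaks on chromosomes 1 to 22, X and Y. All 6 genes and those of the 13 others with a p53-CPT peak without a p53-KO peak are named, with the 3 nearest sites by likeness; 1 further gene of that list is not reported here. Members and lists were chosen with earlier results of these data known.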

Additional observations from a re-analysis of the deposited data

How the results depend on the processing

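Of 37 values recomputed under other settings, 33 stayed within 1.5 times the reported count or, for the median ratio, within the counting interval of its middle site. That site was MDM2 at -7843 bp, and its interval of 0.48 to 2.95 was so wide that the median ratio could hardly leave it. With windows from 50 kb upstream, ATF3-CPT peaks rose from 23 to 37. With scores of at least 15 for ATF3 and 10 for p53, ATF3-CPT peaks fell to 13 and ATF3-Ctrl peaks from 12 to 4. The median ratio, 1.17 as reported, was 0.92 over the 4 shared sites left by that score, 1.52 with windows from 5 kb or 50 kb upstream, 1.34 without repeated sequence, 1.30 from scores per total tags and 1.16 to 1.17 under the other settings. With at most 2 mismatches, 3 of the 6 p53-CPT peaks held a motif in place of 5, against 32.2% of p53-CPT peaks without a p53-KO peak, and with a spacer of 0 to 13 bases 6 did, against 67.1% of them and 48.4% of windows to the side. Windows from 5 kb upstream left 4 p53-CPT peaks, 2 of them with ATF3. Overlaps of p53 with ATF3 fell from 3 to 2 with scores of at least 15 for ATF3 and 10 for p53, which took away MDM2 at -7940 bp. Leaving out repeated sequence took away the same site. When ATF3 peaks shared with ATF3-KO were left out, 2 overlaps remained as well, without PPM1D. The removals of repeated sequence and of ATF3-KO peaks were chosen after seeing the data. Only the MDM2 overlap at +795 bp was kept under each of these settings. All 11 site ratios kept their direction, and stayed in their intervals, with the score per total tags. No paired analysis was possible because each condition had 1 library. The p53 libraries were the shallowest, so weak p53 binding at TP63 and TP73 was not detectable.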
